A study of Mus musculus with 6 samples.

Results

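Sites at which ATF3 binding was corrected in at least 2 of 3 culture conditions are described here. They come from ATF3 ChIP-seq of primary mouse macrophages (BMDMs), which differentiate from marrow cells under the cytokine M-CSF. The lists held KOIN-corrected peaks, called by the authors with the WT library as treatment and the KO library of the same condition as control, and kept only at a WT/KO tag ratio of 2 or more. Corrected peaks outside annotated repeats, 3266 of 4871, were merged wherever they overlapped by 1 bp or more. Of the resulting 2730 regions, 477 (17.5%) had corrected peaks of at least 2 conditions and are called shared sites, and the other 2253 had a corrected peak in 1 condition only. The shared sites were thus chosen by the peak calls and by WT/KO itself, which is given below as a description.

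Atf3 +/+ (WT) and Atf3 -/- (KO) mice had the C57BL/6 strain background, and WT controls were matched in age and sex. The WT animals were 6 to 8 weeks old, and M-CSF was present at 40 ng/ml for the 6 days of culture in each group. Cells of both genotypes received medium alone (unstimulated), HDL at 2 mg/ml for 6 h, or that HDL treatment followed by CpG at 100 nM for 4 h. HDL carries cholesterol away from cells, and CpG oligonucleotides activate Toll-like receptor 9. A rabbit polyclonal antibody against ATF3 was used throughout.

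ATF3 belongs to the bZIP family and is induced by stress and by Toll-like receptor ligands. It binds DNA as a dimer, with itself or with other bZIP proteins such as JUN or C/EBP factors, and is best known in macrophages as a brake on inflammatory genes. The AP-1 sequence TGAGTCA, which reads TGACTCA on the other strand, is bound by dimers of the JUN, FOS and ATF families. The CRE sequence TGACGTCA is bound by CREB and ATF dimers, and TGATGCAA is a composite that joins one side of an ATF element to one side of a C/EBP element.

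The authors concatenated the reads of their replicates before alignment, so that every condition is represented by a single pool per genotype and no spread between mice can be given. The 6 libraries held between 37137377 and 75534584 reads, and the KO libraries of the unstimulated and HDL conditions were the deepest. A tag is a read scaled to a library of 10000000 reads, and WT/KO divides the tags of the WT library by those of the KO library in 1 peak. Both libraries of a condition are counted over the same peak. Tags of different conditions are counted over each condition's own peak, so they can cover intervals of unlike width. Values in parentheses after a WT/KO are its exact 95% interval, which covers counting error of the pooled reads only. With 1 pooled library a group, condition and library cannot be told apart, and tests over regions compare sets of regions, not conditions.

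The sequences shown first are examples of the AP-1, composite and CRE sequences that were compared between shared sites and single-condition regions. They include sites near genes of cholesterol handling, oxidative stress and the Atf3 gene itself. All were read from the mm9 reference, 5′ to 3′, and the capitals mark 1 AP-1, composite or CRE sequence in each line. A second AP-1 sequence in the Cdk14 line is left in lower case.
Atf3, 47.5 kb upstream, chr1:193054627-193054667, plus strand: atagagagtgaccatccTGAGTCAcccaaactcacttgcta
Atf3, 41.1 kb upstream, chr1:193048305-193048345, minus strand: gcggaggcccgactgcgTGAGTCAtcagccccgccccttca
Cdk14, 39.2 kb upstream, chr5:5419435-5419475, plus strand: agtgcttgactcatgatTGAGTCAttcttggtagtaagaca
Cd36, intron 1, chr5:17385923-17385963, plus strand: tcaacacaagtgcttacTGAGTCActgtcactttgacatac
Abca1, intron 5, chr4:53133422-53133462, plus strand: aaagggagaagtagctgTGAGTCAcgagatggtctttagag
Mcl1, 7.9 kb upstream, chr3:95454689-95454729, plus strand: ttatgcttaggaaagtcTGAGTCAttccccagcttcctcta
Tlr4, intron 1, chr4:66489861-66489889, minus strand: gaaaacaagaaTGAGTCAtgggtcagatt
Srxn1 promoter, chr2:151931204-151931232, plus strand: caaattcacccTGAGTCAgcggccgggcg
Creb5 promoter, chr6:53523312-53523340, minus strand: actagcttgagTGAGTCAtatccttccca
Atf3, 18 kb upstream, chr1:193025275-193025316, minus strand: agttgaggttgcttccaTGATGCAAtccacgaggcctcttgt
Nfkbiz, 67.6 kb downstream of its start, chr16:55754691-55754732, minus strand: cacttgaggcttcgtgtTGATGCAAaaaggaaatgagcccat
Nfe2l1, intron 2, chr11:96684153-96684182, plus strand: ttccaaccaccTGATGCAAccaatgacaac
Ppp1r15b promoter, chr1:135027672-135027701, plus strand: ctaggtccggcTGATGCAActcgccgcgtg
Becn1 promoter, chr11:101163589-101163618, plus strand: aggaccagaagTGACGTCAcgacgggagct

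Shared sites held the AP-1 sequence more often than single-condition regions did. Within 100 bp of the centre of the highest-scoring peak it was found in 202 of 477 shared sites (42.3%, Wilson 95% interval 38.0 to 46.8%) and in 660 of 2253 single-condition regions (29.3%, 27.5 to 31.2%). The odds ratio was 1.77 (adjusted p = 3.64e-07, two-sided Fisher's exact test with Benjamini-Hochberg adjustment over 7 comparisons). Windows of the same size 1000 bp to either side of the shared sites held it in 5.24% and 4.19%, and the centres of all 5805 off-repeat standard peaks in 25.2%. The difference was not the same against each kind of single-condition region. AP-1 shares were 23.4% in regions corrected in unstimulated cells only, 26.6% with HDL only and 37.7% with HDL + CpG only. Against the HDL + CpG only regions, a comparison chosen after the data were seen, the odds ratio was 1.21 (adjusted p = 0.279 by Fisher's exact test). Shared sites also had more tags, a median of 14.5 in the highest WT library against 10.8. A shared site takes the highest of several libraries and a single-condition region has a single library, so this gap is partly built in. Within a condition, the median WT tags were 11.6 against 10.2 unstimulated, 13.7 against 11.3 with HDL and 11.7 against 10.3 with HDL + CpG. Among regions between the quartiles of WT tags, which rest on the same unequal value, the odds ratio was 1.72 (adjusted p = 0.00328 by Fisher's exact test). With the HDL list left out it was 1.51 (adjusted p = 0.364), and with the HDL + CpG list left out 1.57 (adjusted p = 0.0836, both Fisher's exact test).

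The composite TGATGCAA showed a larger odds ratio on fewer sites. It lay in 37 shared sites (7.76%, 5.68 to 10.5%) and in 81 single-condition regions (3.60%, 2.90 to 4.45%), an odds ratio of 2.25 (adjusted p = 0.000565 by Fisher's exact test). The shifted windows held it in 0.629% and 1.26%, and the centres of all 5805 off-repeat standard peaks in 4.22%. The single-condition regions thus held it no more often than standard peaks at large. Between the quartiles of WT tags 15 of 243 shared sites and 26 of 638 others had the sequence, and the odds ratio of 1.55 missed the threshold (adjusted p = 0.413 by Fisher's exact test). It also missed it with any 1 of the 3 lists left out, with odds ratios of 1.59 to 1.98 (adjusted p = 0.143 to 0.588, Fisher's exact test). Only 8 shared sites had both AP-1 and the composite, among them the Nfe2l2 intron site and the site near Bach2. At promoters the composite was in 8 of 43 shared sites and in 12 of 240 single-condition regions, counts that were looked at only after the data were seen and were not tested.

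CRE sequences were rare in both sets, with 9 shared sites (1.89%) and 36 others (1.60%), an odds ratio of 1.18 (adjusted p = 0.806 by Fisher's exact test). One shared site, in exon 4 of Csf2ra, held a pair of them. The PU.1-type ETS sequence GAGGAAGT, which marks many macrophage enhancers, was in 39 shared sites (8.18%) and 158 others (7.01%), an odds ratio of 1.18 (adjusted p = 0.533 by Fisher's exact test). Of the shared sites, 237 (49.7%) had at least one of AP-1, CRE or the composite, which leaves 240 sites with none of these exact letters in the window.

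**Figure D1:**
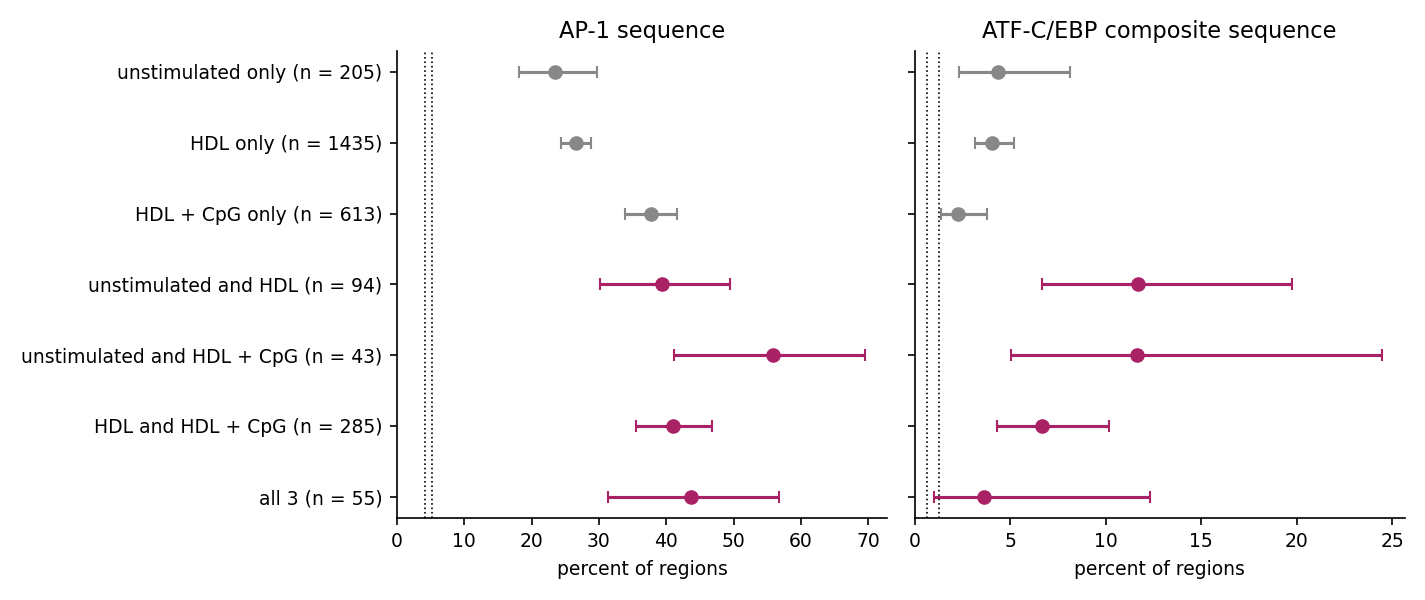
Percent of regions (horizontal axes) with the AP-1 sequence (left) and the ATF-C/EBP composite (right) by the conditions in which the region was corrected, with Wilson 95% intervals; grey points are single-condition regions, purple points shared sites, and dotted lines the 2 shifted windows. AP-1 shares of shared sites lay between 39.4% and 55.8%, and those of single-condition regions between 23.4% and 37.7%.

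Within the shared sites, no difference in AP-1 was detected between those corrected in all 3 conditions and in exactly 2. The sequence lay in 24 of 55 (43.6%, 31.4 to 56.7%) and 178 of 422 (42.2%, 37.6 to 46.9%), an odds ratio of 1.06 (p = 0.885, Fisher's exact test). By pair of conditions, the share was 41.1% for HDL and HDL + CpG, 39.4% for unstimulated and HDL, and 55.8% (41.1 to 69.6%) for unstimulated and HDL + CpG, with overlapping intervals. Sites with and without AP-1 had nearly the same median tags in the highest WT library, 14.5 and 14.3, and median WT/KO values of 3.05 and 2.87 in unstimulated cells, 3.06 and 2.98 with HDL and 3.11 and 3.10 with HDL + CpG. The 252 AP-1 sequences in shared sites lay at a median of 37 bp from the peak centre, and the 776 in single-condition regions at 38 bp. In 74 of the 202 sites (36.6%) one lay within 25 bp of the centre, against 31.1% of the single-condition regions that had it.

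**Figure D2:**
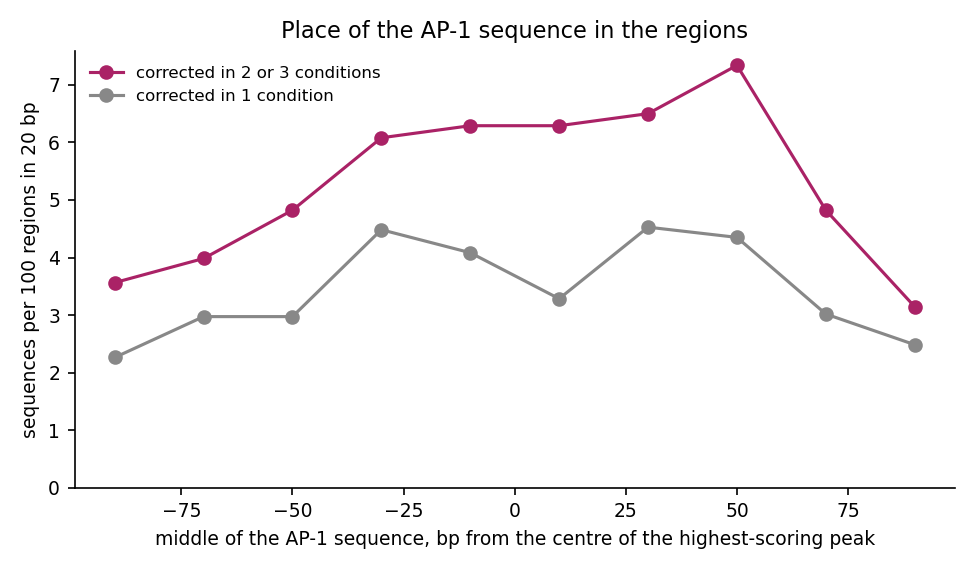
Number of AP-1 sequences per 100 regions in steps of 20 bp (vertical axis) against their distance from the centre of the highest-scoring peak in bp (horizontal axis), for shared sites (purple) and single-condition regions (grey). The purple line lies above the grey one in each step, and both are lower at the window's edges than near the centre.

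No difference in genome position between shared sites and the rest passed the threshold. By the authors' annotation, 216 (45.3%) lay in introns, 203 (42.6%) were intergenic and 43 (9.01%) were at promoters, and the remaining 15 were in exons, untranslated regions, non-coding genes or at transcription termination sites. Promoters made up 10.7% of single-condition regions (odds ratio 0.831, adjusted p = 0.533 by Fisher's exact test). The median distance to the nearest start site was 19.8 kb in shared sites and 20.3 kb in the others, a difference of -0.564 kb (adjusted p = 0.836, two-sided permutation test of medians). Median GC content of the 200 bp windows was 49.0% and 48.0% (adjusted p = 0.399, same permutation test). On autosomes alone, where the 5 shared sites of the X chromosome drop out, the GC difference was 1.5 percentage points and passed the threshold (adjusted p = 0.0127, permutation test).

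The largest pattern was HDL and HDL + CpG, with 285 of the 477 sites. A further 94 were corrected in unstimulated and HDL-treated cells, 43 in unstimulated cells and with HDL + CpG, and 55 in all 3 conditions. Of the off-repeat corrected regions of a condition, shared sites made up 192 in unstimulated cells (48.4%), 383 with HDL + CpG (38.5%) and 434 with HDL (23.2%). The share was largest in the shortest list and smallest in the longest, which held 398, 998 and 1870 off-repeat peaks. Peaks that made a shared site overlapped by a median of 711 bp. The smallest overlap was 33 bp, at Cerk, and the next smallest 384 bp. Outside the rule, the closest peaks of different conditions, at Ncf1, were 18 bp apart, and the next closest pair 191 bp.

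Tags of the shared sites were moderate. In unstimulated cells their WT tags ranged from 6.73 to 33.9 with a median of 11.6, and their KO tags from 0.93 to 11.7 with a median of 4.04. With HDL, WT tags ranged from 5.80 to 121 (median 13.7) and KO tags from 0.15 to 16.1 (median 4.54). With HDL + CpG, WT tags ranged from 5.66 to 124 (median 11.7) and KO tags from 0.21 to 9.26 (median 3.79). Median WT/KO was 2.99, 3.02 and 3.10 in this order, beside 3.15, 3.05 and 3.17 in single-condition regions. The lower 95% bound of WT/KO was above 1 in every shared site of every condition in which it was corrected, and above 2 in 68 of 192 sites unstimulated, with HDL in 190 of 434 and with HDL + CpG in 143 of 383. These peaks were called against the same KO library and kept at a WT/KO of 2 or more. A bound above 1 was therefore close to fixed in advance. Values close to the filter were common, and 56, 103 and 89 sites had a WT/KO under 2.5. Just outside, the highest WT/KO under 2 among off-repeat standard peaks, which were called on the WT library alone, was 1.99, 2.00 (1.9989) and 2.00 (1.9981).

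The 55 sites corrected in all 3 conditions had most WT tags with HDL. Their median was 11.9 tags unstimulated, 16.9 with HDL and 13.3 with HDL + CpG, and HDL held the highest of the 3 WT values at 38 sites. Higher WT tags with HDL were not particular to these sites. Among off-repeat regions with a standard peak in both conditions, WT tags were higher with HDL than unstimulated at 68.8% of 586. WT tags were higher with HDL + CpG than with HDL at 34.1% of 902 such regions. Median KO tags were 4.24, 5 and 3.79, and median WT/KO values 3.05, 3.21 and 3.28. At 24 of the 55 the highest WT/KO was at most 1.5 times the lowest, and at 13 it was 2 or more times the lowest.

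The strongest of these lay in Mid1 on the X chromosome, a gene for a microtubule-associated ubiquitin ligase, beside the start of the non-coding transcript G530011O06Rik. Its promoter region (chrX:166415751-166418183) had 33.9 WT and 4.63 KO tags unstimulated, 36.7 and 3.18 with HDL, and 56.0 and 7.37 with HDL + CpG. The WT/KO values were 7.33 (5 to 11), 11.5 (7.25 to 19.2) and 7.60 (5.33 to 11.1). Within each condition WT tags thus exceeded KO tags several times over. The region is wider than any unstimulated peak of a shared site (at most 1720 bp), so its tags cover unlike intervals between conditions. All 5 shared sites of the X chromosome fell within 15 kb of each other in this gene, which crosses the boundary of the pseudoautosomal region in laboratory mice. The site 5.4 kb from the start of the transcript was the widest, at 4494 bp. Its WT tags were 25.3, 49.0 and 13.1 against KO tags of 4.50, 9.39 and 1.89. The tags of a condition come from 1 peak of at most 2825 bp, so they can cover different parts of this site. The site 2.5 kb upstream had 20.2, 16.9 and 20.6 WT tags against 4.10, 2.42 and 3.16. None of the 5 had an AP-1, CRE or composite sequence in the window.

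Xdh, the gene of xanthine dehydrogenase in purine breakdown, had a site in intron 2 (chr17:74290843-74292377) with 8.35 WT and 3.57 KO tags unstimulated, 31.6 and 9.08 with HDL, and 25.7 and 9.26 with HDL + CpG. WT tags were lowest in unstimulated cells, but so were KO tags, and WT/KO was 2.34 (1.35 to 4.07), 3.48 (2.53 to 4.83) and 2.77 (1.95 to 4.00). A site 39.2 kb upstream of the annotated start of Cdk14, a cyclin-dependent kinase, lay within that gene by the host gene annotation. WT and KO tags were both highest in unstimulated cells there, with 28.5 WT and 11.7 KO tags. They were 19.3 and 5.75 with HDL and 15.8 and 5.89 with HDL + CpG. This site carries 2 AP-1 sequences 11 bp apart, both within 13 bp of the centre.

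Ifnb1, the gene of interferon beta, had a site 14.8 kb upstream (chr4:88182925-88183979) that was corrected in all 3 conditions. WT tags were 18.04 unstimulated, 21.1 with HDL and 16.4 with HDL + CpG, and KO tags 1.99, 5.30 and 2.95. WT/KO was 9.07 (5.14 to 17.1), 3.98 (2.64 to 6.10) and 5.55 (3.13 to 10.6), the unstimulated value being the highest of the 55 sites in that condition. None of the 4 sequences searched lies in its 200 bp window, which is shown in full as an example of a strong site without them.
Ifnb1, 14.8 kb upstream, chr4:88183417-88183616, plus strand: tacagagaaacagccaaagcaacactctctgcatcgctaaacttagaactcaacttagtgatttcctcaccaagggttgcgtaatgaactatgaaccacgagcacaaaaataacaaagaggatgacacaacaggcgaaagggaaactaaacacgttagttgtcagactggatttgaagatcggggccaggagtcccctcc

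The intron 2 site of Ttc39a (chr4:109091342-109092373) had the widest range of WT/KO among the 12 strongest sites. It had 9.96 WT and 4.90 KO tags unstimulated, 24.8 and 3.94 with HDL, and 19.2 and 1.47 with HDL + CpG, which gave 2.03 (1.25 to 3.30), 6.29 (4.04 to 10.1) and 13.1 (6.09 to 33.3). The intervals of both treated conditions lay above the unstimulated one. The other sites among the 12 strongest lay near Gm19589, Gm4832, 4933406J10Rik (inside Eftud1), B930025P03Rik (inside Myo16) and Gm19510, with WT tags of 12.1 to 26.4 and WT/KO of 2.21 to 8.02 over all conditions.

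**Figure D3:**
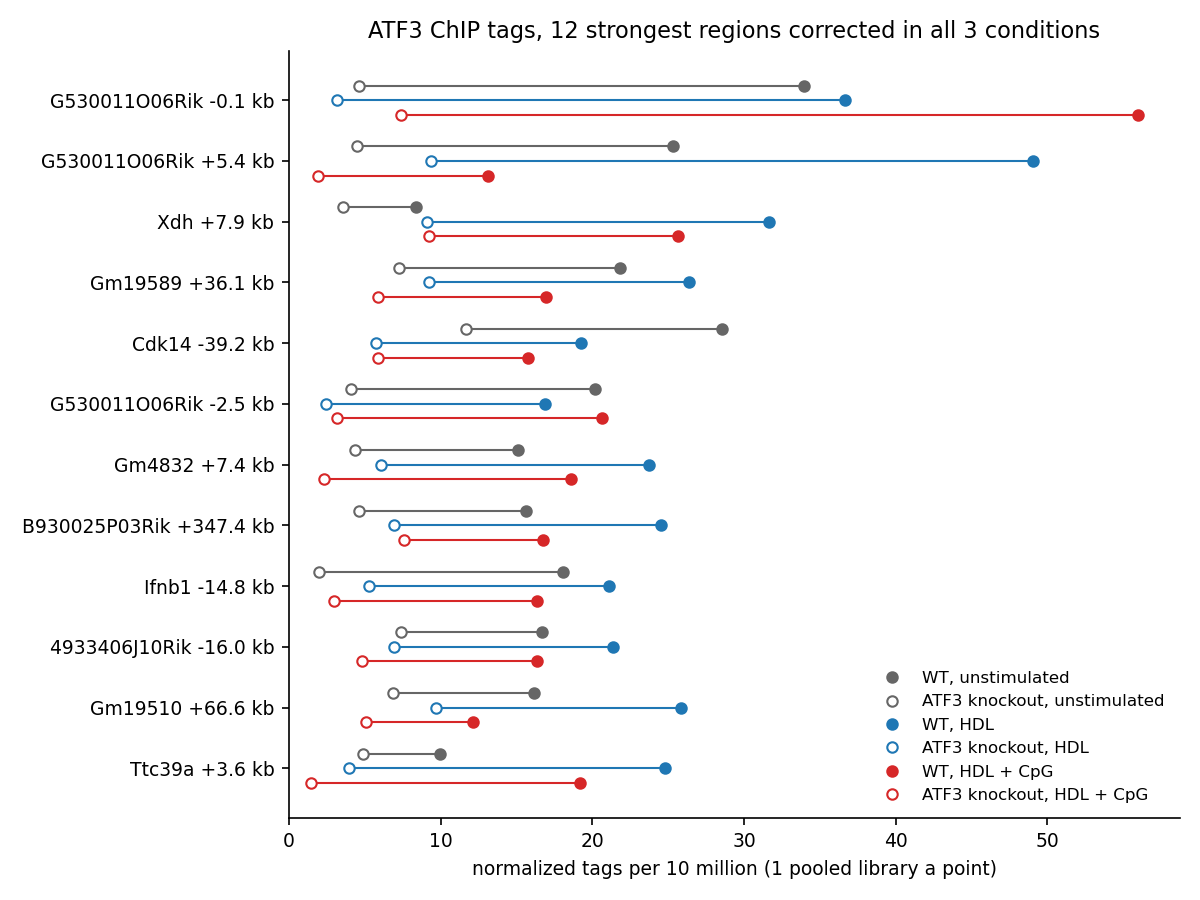
Normalized tags per 10000000 reads (horizontal axis) in the WT library (filled) and the KO library (open) of each condition for the 12 sites corrected in all 3 conditions with the highest summed WT tags, named by nearest gene and distance to its start. Each point is 1 pooled library; WT tags lie between 8.35 and 56.0 and KO tags between 1.47 and 11.7.

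One site in 2 conditions had more tags than any other shared site, and it is named after its values were seen. It lay 251 kb upstream of Fat1, an atypical cadherin (chr8:45783825-45784689), with 121 WT and 9.69 KO tags with HDL and 124 and 8.63 with HDL + CpG (WT/KO 12.5 and 14.4). In unstimulated cells the peak there had 78.9 WT and 22.8 KO tags with a WT/KO of 3.47 (2.86 to 4.21), and it was annotated on a repeat, so that it was not counted. The window ends in 6 tandem copies of TTTGGGG, shown here since the repeat filter reads only the annotation given for a peak, not its bases.
Fat1, 251 kb upstream, chr8:45784168-45784367, plus strand: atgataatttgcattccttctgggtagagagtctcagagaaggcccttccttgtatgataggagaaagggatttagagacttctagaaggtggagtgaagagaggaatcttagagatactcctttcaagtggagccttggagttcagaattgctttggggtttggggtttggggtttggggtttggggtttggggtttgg

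Promoter sites numbered 43, of which 5 were corrected in all 3 conditions. At Slc15a3, a lysosomal peptide and histidine transporter, WT tags were 12.7, 21.4 and 19.8 and KO tags 5.30, 5 and 7.79, in the order unstimulated, HDL and HDL + CpG. WT/KO was highest with HDL, at 4.27 (2.82 to 6.62). At Fgd3, a guanine nucleotide exchange factor, WT tags were 14.5, 15.8 and 12.7 and KO tags 4.24, 3.63 and 2.32, so that WT tags varied little and WT/KO ran from 3.43 to 5.49. The Lair1 promoter, of an inhibitory collagen receptor of leukocytes, had 19.0 WT and 3.94 KO tags with HDL and 17.99 and 5.26 with HDL + CpG. Its 200 bp window holds a long run of CA-type repeats across the centre, although its peaks were not annotated on a repeat. The promoter of the histone gene Hist1h4h had 19.1 WT and 8.47 KO tags unstimulated and 19.0 and 6.51 with HDL. The D16Ertd472e promoter had 11.6 and 5.56 unstimulated and 22.9 and 8.02 with HDL.

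The Atf3 gene itself (chr1:192994175-193007219, minus strand) had 3 shared sites upstream, at 18, 41.1 and 47.5 kb, and none at its promoter. The most distant was corrected in all 3 conditions, with 13.2 WT and 6.49 KO tags unstimulated, 19.3 and 6.05 with HDL, and 17.6 and 5.47 with HDL + CpG. WT/KO was 2.03 (1.34 to 3.09), 3.18 (2.13 to 4.80) and 3.22 (2.05 to 5.19), with overlapping intervals. The site at 41.1 kb was corrected with HDL (17.7 and 4.09 tags) and HDL + CpG (12.3 and 4.21 tags), and the one at 18 kb in unstimulated cells (10.5 and 4.90 tags) and with HDL (15.6 and 7.27 tags). Both AP-1 sequences lay within 15 bp of their peak centre. At the promoter a standard peak was called in each condition, but its WT/KO stayed under 2, at 1.73 (1.21 to 2.46), 1.81 (1.31 to 2.49) and 1.97 (1.31 to 3.01). With 2 sites assigned to Nenf, 5 shared sites and 3 single-condition regions lay within 200 kb of Atf3. No stretch of 200 kb held more shared sites than this one and that in Mid1, with 5 each.

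Shared sites also lay near Creb5, Nfe2l2, Nfe2l1 and Bach2, further genes of the bZIP family. No gene of the list of 10 AP-1 subunits had a shared site within 100 kb, although 5 had a corrected region of some kind. Over all genes, 382 of 1928 with a corrected region within 100 kb (19.8%) had a shared site, which is the background for the lists that follow. Those lists are likewise counted over their genes with a corrected region, unless whole lists are named. Of the ATF, CREB and C/EBP factors 2 of 8 had one, Atf3 and Creb5. The Creb5 promoter had 18.6 WT and 3.57 KO tags unstimulated (WT/KO 5.20, 3.29 to 8.44) and 14.0 and 6.96 with HDL (2.01, 1.33 to 3.05), with intervals that did not overlap. Of the MAF, BACH and NRF factors, bZIP proteins of the antioxidant response, 3 of 4 had one. The intron 1 site of Nfe2l2, which encodes NRF2, had 18.5 WT and 6.36 KO tags with HDL and 16.0 and 5.47 with HDL + CpG, and WT/KO was 2.90 and 2.92. It held an AP-1 sequence 8 bp and a composite 88 bp from the centre. A second Nfe2l2 site 58.7 kb upstream had WT/KO values of 2.78 unstimulated and 2.17 with HDL + CpG. Nfe2l1, a paralogue of Nfe2l2, had 15.8 WT and 5.75 KO tags with HDL and 12.1 and 3.16 with HDL + CpG at a site with 2 composites. The site 26 kb upstream of the annotated start of Bach2, a transcriptional repressor, had a WT/KO of 2.03 unstimulated and 2.88 with HDL + CpG.

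Lipid and cholesterol genes had 6 shared sites at 5 of 15 genes, and 5 of the 6 held AP-1. Over all genes, 179 of the 411 shared sites within 100 kb of a start held it, and the difference was not tested. Cd36, a scavenger receptor for oxidized LDL and fatty acids, had a site in intron 1 (chr5:17385327-17386409) with 9.96 WT and 3.44 KO tags unstimulated, 17.9 and 5.90 with HDL, and 23.1 and 6.32 with HDL + CpG. WT/KO was 2.90 (1.71 to 4.98), 3.04 (2.02 to 4.62) and 3.65 (2.42 to 5.65). Both WT and KO tags were lowest in unstimulated cells, and the 3 intervals overlapped. Abca1, the transporter that hands cholesterol to lipid-poor apolipoprotein, had 2 sites corrected in all 3 conditions. The upstream one (chr4:53194019-53195126) had 14.5, 12.1 and 15.2 WT tags against 4.77, 3.33 and 3.16 KO tags. The one in intron 5 (chr4:53132974-53133863) had 9.96, 15.0 and 13.1 against 4.63, 7.11 and 2.53, and its WT/KO was 2.15 unstimulated, 2.11 with HDL and 5.19 (2.78 to 10.6) with HDL + CpG. The upstream window is shown since it carries 2 AP-1 sequences, on opposite strands.
Abca1, 21.8 kb upstream, chr4:53194458-53194657, plus strand: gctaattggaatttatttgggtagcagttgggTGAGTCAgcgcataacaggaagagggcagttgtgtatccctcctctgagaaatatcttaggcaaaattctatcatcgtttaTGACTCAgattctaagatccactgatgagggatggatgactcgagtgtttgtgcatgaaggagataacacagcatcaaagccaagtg

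Lrp1, an endocytic receptor of the LDL receptor family, had a site in intron 6 with 25.1 WT and 6.96 KO tags with HDL and 15.0 and 4.84 with HDL + CpG. Abcg1 and Npc1 were the other 2 lipid genes with a shared site.

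Cytokine and chemokine genes had a shared site at 5 of 18 genes, Ifnb1, Ccl2, Ccl3, Il1b and Osm. The site 28.5 kb upstream of Ccl2, the main monocyte chemoattractant, had 14.5 WT and 6.09 KO tags unstimulated and 16.6 and 4.69 with HDL. With HDL + CpG a standard peak there had 18.2 WT and 7.37 KO tags (WT/KO 2.47, 1.65 to 3.76) and no corrected peak was called. Il1b, the gene of interleukin-1 beta, had a site 2.4 kb upstream with 14.0 and 6.66 with HDL and 11.1 and 5.05 with HDL + CpG, and WT/KO was close to the filter at 2.10 and 2.20. At Osm, the gene of oncostatin M, WT/KO was 3.70 and 4.17 in the same conditions.

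In Toll-like receptor and NF-kB signalling 6 of 21 genes had a shared site, Dusp1, Nfkbiz, Tbk1, Ticam1, Tlr4 and Tlr5. Nfkbiz encodes an inducible nuclear IkB protein. Its strongest site had 18.9 WT and 6.88 KO tags unstimulated and 25.8 and 6.21 with HDL, with WT/KO values of 2.74 and 4.16, and its standard peak with HDL + CpG, which was not corrected, had 17.6 and 5.89 (WT/KO 2.99, 1.93 to 4.75). The intron 1 site of Tlr4, the receptor for lipopolysaccharide, had 12.7 and 5.75 with HDL and 8.89 and 1.05 with HDL + CpG. Sites near Tlr5, the flagellin receptor, and Tbk1, a kinase upstream of IRF3, had WT/KO values of 2.18 to 4.17.

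Macrophage receptors and adhesion molecules had a shared site at 8 of 34 genes, among them Cd68, Clec5a, Csf2ra, Cx3cr1, Itga5, Itgb2 and Lair1. Cx3cr1, the fractalkine receptor, had a site in its 3′ untranslated region with 9.96 WT and 1.85 KO tags unstimulated, 17.7 and 4.84 with HDL, and 16.4 and 5.05 with HDL + CpG. WT tags were lowest unstimulated, yet WT/KO was highest there, at 5.38 (2.84 to 10.8) against 3.65 and 3.24. Csf2ra, a subunit of the GM-CSF receptor, had 26.4 and 9.23 with HDL and 21.02 and 8.63 with HDL + CpG. Upstream of Itga5, a fibronectin receptor subunit, WT/KO was 3.05, 2.30 and 2.07. Macrophage lineage factors had shared sites at 3 of 18 genes, Egr2, Ets2 and Klf13. The Ets2 site had WT tags of 9.69, 11.6 and 10.9 and KO tags of 4.77, 1.36 and 4.42, so that WT/KO was 8.53 (4.10 to 19.8) with HDL against 2.03 (1.25 to 3.32) and 2.47 (1.47 to 4.3). KO tags thus differed between conditions by more than WT tags.

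Genes of the cell cycle, p53 and apoptosis had shared sites at 5 of 13, Bcl2, Bmf, Btg2, Cdkn1a and Mcl1. Near Mcl1, which encodes a survival factor, the site had 35.6 WT and 14.4 KO tags with HDL and 15.6 and 3.79 with HDL + CpG. Both fell together, and WT/KO was 2.47 (1.89 to 3.25) and 4.11 (2.44 to 7.29). Its unstimulated standard peak, annotated on a repeat, had 10.2 and 2.78 (WT/KO 3.68, 2.11 to 6.60) without correction. The intron 1 site of Cdkn1a, the gene of the cyclin-dependent kinase inhibitor p21, had a WT/KO of 3.51 unstimulated and 2.25 with HDL. Its window holds GT-type repeats across the centre, although its peaks were not annotated on a repeat. The Bcl2 intron site had 4.33 with HDL and 2.88 with HDL + CpG. Signalling brakes and tyrosine kinases had 9 shared sites at 8 of 22 genes, Dusp6, Inpp5d, Map2k3, Map3k5, Ptk2b, Src, Tob2 and Zfp36l2. The Tob2 site, with 2 AP-1 sequences, had 24.5 WT and 6.21 KO tags with HDL and 15.0 and 3.79 with HDL + CpG, and WT/KO stood at 3.95 in both. Dusp6, a phosphatase of ERK kinases, had 21.9 and 6.21, then 14.0 and 4.42. At Map2k3, a kinase upstream of p38, WT/KO was 2.56 and 2.92, and at Src 2.84 and 4.65.

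Lysosome and autophagy genes had shared sites at 4 of 10, Becn1, Ctsb, Gpnmb and Slc15a3. The Becn1 promoter, of an autophagy protein, had 7.27 WT and 3.31 KO tags unstimulated and 6.33 and 2.12 with HDL, among the lowest of the named sites. At the cathepsin B gene Ctsb, WT tags were 8.89 unstimulated and 18.6 with HDL + CpG, and KO tags 2.91 and 7.58. Endoplasmic reticulum and integrated stress genes had 2 of 9. The Ppp1r15b promoter, of a subunit of the eIF2α phosphatase, had 20.3 and 7.42 with HDL and 12.3 and 4.21 with HDL + CpG, and the other gene was Trib1. Oxidative stress and metal genes had 1 of 10, the sulfiredoxin gene Srxn1. Its promoter was corrected in all 3 conditions with 8.08, 9.23 and 10.1 WT tags and 2.12, 3.18 and 2.95 KO tags. For genes of other cell types, whole lists are counted, unlike the lists above. None of 29 lymphocyte genes had a shared site and 2 had a corrected region, while none of 39 neuronal genes had either.

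For sites corrected in both conditions of a pair, WT/KO is set side by side here as a description, since a WT/KO of 2 or more in both was needed to become a shared site. The median ratio of the 2 WT/KO values was 1.05 for HDL against unstimulated cells (149 sites, quartiles 0.797 and 1.36), 1.05 for HDL + CpG against unstimulated cells (98 sites, 0.834 and 1.42) and 1.05 for HDL + CpG against HDL (340 sites, 0.813 and 1.38). Of the 149, 11 (7.38%) were at least 2-fold higher with HDL and 6 (4.03%) at least 2-fold lower. In the background of 586 off-repeat regions with a standard peak in both conditions these shares were 10.9% and 2.9%. Of the 98, 7 (7.14%) were higher with HDL + CpG and 5 (5.10%) lower, beside 5.96% and 12.3% of 470 regions. Of the 340, 33 (9.71%) were higher with HDL + CpG than with HDL and 17 (5%) lower, beside 7.76% and 17.3% of 902 regions. Nothing is read from these shares. With a pseudocount of 1 tag, the share past 2-fold in either direction went from 14.7% to 7.35% for this pair and from 12.2% to 7.14% for HDL + CpG against unstimulated cells. The 95% intervals of the 2 WT/KO values did not overlap at 5 (3.36%), 2 (2.04%) and 6 (1.76%) shared sites in the 3 pairs, beside 11.1%, 14.3% and 14.5% of the background regions. The background also holds regions with a WT/KO under 2, which the filter kept out of the shared sites, so nothing is read from these shares either.

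**Figure D4:**
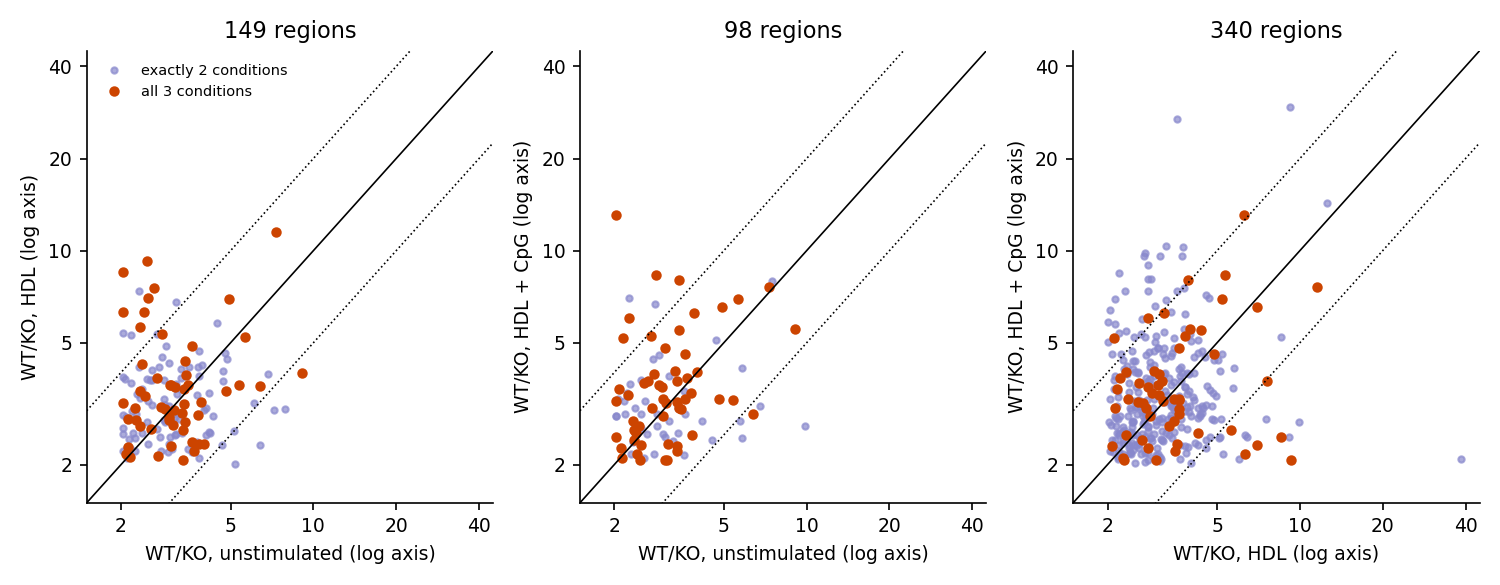
WT/KO of each shared site in 1 condition against another (log axes) for the 3 pairs of conditions, with the line of equal values (solid) and 2-fold differences (dotted); orange points are sites corrected in all 3 conditions, blue points sites corrected in exactly 2. No point lies under 2 on either axis, as the authors' filter sets, and most points lie between the dotted lines.

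Tags are given in the same way, and WT and KO tags of a shared site are tied to each other by the filter on WT/KO. The median of HDL over unstimulated WT tags was 1.23 in shared sites and 1.15 in the background regions, and the medians for KO tags were 1.23 and 0.987. For HDL + CpG over HDL the medians of WT tags were 0.842 and 0.877, and those of KO tags 0.816 and 0.978. For HDL + CpG over unstimulated cells they were 0.994 and 0.991 for WT tags and 0.921 and 1.12 for KO tags. The same libraries lie behind several pairs, so these values are given side by side only. Tags of a condition also come from its own peak. In shared sites the median ratio of peak widths was 1.04 for HDL over unstimulated cells, 1.07 for HDL + CpG over unstimulated cells and 0.984 for HDL + CpG over HDL.

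The 12 sites in exactly 2 conditions with the largest and smallest ratio of WT/KO values were picked as extremes, and some rest on very few KO reads. The intervals did not overlap at 3 of the 12, and KO tags changed by a larger fold than WT tags at all 12. At Btg2, an antiproliferative gene, the site 13.7 kb from the start had 10.3 WT and 4.84 KO tags with HDL and 17.6 and 2.53 with HDL + CpG, so that both libraries moved and WT/KO went from 2.12 (1.30 to 3.50) to 6.95 (3.79 to 14.0). At Rftn1, which encodes a lipid raft protein, the values were 12.4 and 1.36 with HDL and 15.0 and 6.10 with HDL + CpG, a WT/KO of 9.11 (4.41 to 21.1) and 2.45 (1.58 to 3.91). At Mfsd12 the KO peak with HDL rested on 1 read (WT/KO 38.7, 6.19 to 1581) and stood at 2.08 with HDL + CpG. The site in Cdh23 next to Gm17455 also rested on 1 KO read, with HDL + CpG (WT/KO 27.0, 4.45 to 1099.5), and had 3.57 with HDL. The other 8, near Tlr4, 2310002F09Rik, Cd1d1, G530011O06Rik, Trib1, Gm8709, St8sia4 and Coro2a, differed by 2.77- to 3.85-fold with overlapping intervals.

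Besides Atf3, the genes nearest to most shared sites were G530011O06Rik with 5, Tomm20 with 4, and 1700112H15Rik and A230028O05Rik with 3 each. The Tomm20 sites lay 92.7 to 138 kb from its start, outside annotated protein-coding genes, and had WT tags of 9.75 to 23.9 and WT/KO of 2.18 to 6.01. One of the A230028O05Rik sites lay in Lpp, and those near 1700112H15Rik had WT/KO of 2.20 to 3.13. In all, the shared sites were assigned to 437 genes, of which 32 had 2 or more.

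In the condition where a shared site was not corrected, a peak was often not called at all. Of the 285 sites of the HDL and HDL + CpG pattern, 231 had no standard peak in unstimulated cells. Of the 94 sites of unstimulated and HDL cells, 61 had none with HDL + CpG, and of the 43 sites of unstimulated and HDL + CpG cells 21 had none with HDL. A corrected peak on a repeat, which was not counted, lay at 4, 2 and 4 sites, of which 1 in unstimulated cells had no standard peak. A standard peak without any corrected peak lay at 51, 31 and 18 sites. In unstimulated cells 39 of the 51 had a WT/KO under 2 (median 1.77), with HDL + CpG 23 of the 31 (median 1.73), and with HDL 12 of the 18 (median 1.94). WT/KO was under 1 at 2 of these peaks, both with HDL + CpG.

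The same comparison was made from the side of the standard peaks, in a grouping chosen after the data were seen and given with no test. Off-repeat standard peaks with no corrected peak in their condition were split by the number of other conditions with a corrected peak at the same place. In unstimulated cells median WT/KO was 1.49 for 506 peaks with none, 1.78 for 162 with 1 and 1.77 for 48 with both. With HDL + CpG it was 1.27 (714 peaks), 1.5 (225) and 1.74 (28), and with HDL 1.79 (887), 1.82 (133) and 1.94 (17). WT tags exceeded KO tags at 48 of 48, 27 of 28 and 17 of 17 of the peaks corrected in both other conditions, in the order unstimulated, HDL + CpG and HDL. The counts were 161 of 162, 181 of 225 and 132 of 133 for peaks corrected in 1 other condition, and 426 of 506, 530 of 714 and 801 of 887 for peaks corrected in none. The corrected peaks that place a peak among the groups come from the other conditions, but the lack of a corrected peak, which all these peaks share, depends on the same WT and KO libraries as the value.

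**Figure D5:**
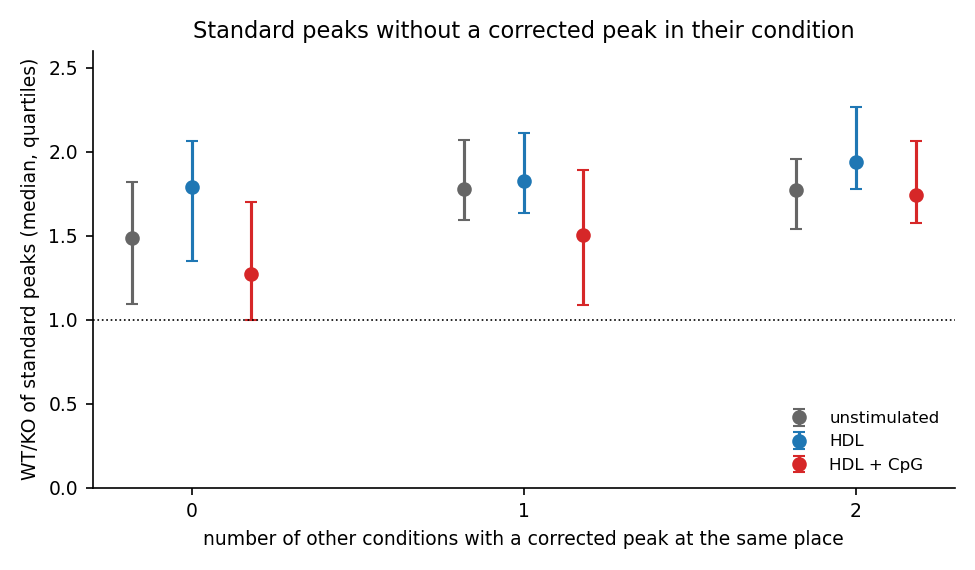
Median WT/KO with quartiles (vertical axis) of off-repeat standard peaks that had no corrected peak in their own condition, by the number of other conditions with a corrected peak at the same place (horizontal axis), for unstimulated (grey), HDL (blue) and HDL + CpG (red) libraries. All medians lie above 1 (dotted line), from 1.27 to 1.94.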

How the data were processed

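ChIP-seq reads of 3 pooled WT and 3 pooled KO libraries were aligned to mm9 by the authors with Bowtie, which kept reads with several matches at their best one; peaks were called with MACS and annotated with HOMER; the submitters' processing notes give Bowtie 0.12.8, MACS 1.4.2, HOMER 4.3 and CASAVA 1.8. The score of each peak in the deposited lists is the one the authors obtained from MACS, and it only chose a region's leading peak. The signal per peak in the deposited lists is the number of tags the authors normalized to 10000000 per library. A further deposited column holds the authors' WT/KO fold, which was not used. Reads were recovered from tags and the library totals in the file headers, all within 0.005 tags of whole reads. The members, gene lists and tests were chosen with earlier results of these data known.

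A region takes its centre, annotation and nearest gene from its highest-scoring peak, and its tags in a condition from that condition's highest-scoring peak. At 1 shared site a condition had more than 1 peak. Sequences were searched on both strands in 200 bp of the NCBIM37 reference, the assembly of mm9, whose chromosomes hold all peaks; host genes are from GENCODE vM1. Named sites are the 12 sites in all 3 conditions and the 6 promoter sites with the highest summed WT tags, up to 4 sites per list of 15 gene lists with the start within 100 kb, the 6 largest and 6 smallest ratios of WT/KO among sites in exactly 2 conditions, the 5 genes nearest to most sites, and Cd36, Ifnb1 and Atf3. Fisher's exact test compared shares and a permutation test with 100000 resamples compared medians, all two-sided, after tests on simulated data. Intervals cover counting error only. Alternatives covered overlap, score, repeat order, chromosomes, lists, window, centre, WT tags, comparison set and a pseudocount of 1 tag (0 in the main values). Python 3.11.15, numpy 2.4.6, pandas 2.3.3, scipy 1.17.1 and matplotlib 3.10.9 were used. A list of sequencing indexes was not used. A few items are not reported here.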

Additional observations from a re-analysis of the deposited data

Results flagged for a closer look

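At 2 shared sites the WT/KO went the other way in the condition without correction, a difference that was not tested. The Hist1h4h promoter, with a WT/KO of 2.26 unstimulated and 2.92 with HDL, had 19.0 WT and 21.9 KO tags with HDL + CpG, a WT/KO of 0.868 (0.650 to 1.16). The intron 1 site of Alcam, with 2.14 unstimulated and 2.42 with HDL, had 6.47 WT and 8.84 KO tags with HDL + CpG, a WT/KO of 0.732 (0.447 to 1.19). Both intervals include 1. The HDL + CpG peak at Alcam was annotated on a repeat, unlike the corrected peaks of that site.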

How the results depend on the processing

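The lists give 1 pooled library a group, so that leaving out a replicate was not possible, and most named WT/KO values rest on fewer than 100 reads a library. No paired analysis was possible because no replicate number is shared between groups of 1 pooled library each, and the condition shared by a WT and a KO library is already in WT/KO, which chose the sites. Of 126 alternative values, 91 kept their side of the threshold with no opposite direction or stayed within the main spread. Another 14 took the opposite direction, all in comparisons that passed the threshold neither way. The CRE odds ratio was 0.267 at a score of at least 60, 0.231 without the HDL list, 0.419 without the HDL + CpG list and 0.872 with windows of 200 bp each side. That of GAGGAAGT was 0.860 and 0.685 at scores of 60 and 100 and 0.708 without the HDL + CpG list, and that of promoters 1.47 without the HDL + CpG list. AP-1 in all 3 against exactly 2 conditions had 0.943 and 0.394 at the same scores and 0.844 with windows of 200 bp each side. The distance difference was 0.0005 kb on autosomes, 0.728 kb without the HDL list and 0.889 kb without the HDL + CpG list; the cause was not tested. The number of shared sites was 141 at a score of at least 60, 12 at 100, 99 without the HDL list and 150 without the HDL + CpG list, and that of sites in all 3 conditions 11 and 1 at the 2 scores. The AP-1 odds ratio was no longer past the threshold at a score of 100 (1.89), without the HDL list (1.51), without the HDL + CpG list (1.57) and against HDL + CpG only regions (1.21); the composite at a score of 100 (3.92), without the unstimulated (1.59), HDL (1.64) or HDL + CpG list (1.98) and between the quartiles of WT tags (1.55). All of these settings except the comparison with HDL + CpG only regions also leave fewer shared sites. The cause of these changes was not tested. The GC difference passed the threshold on autosomes (1.5 percentage points) and between the quartiles of WT tags (2 percentage points), for which the cause was not tested. The share of sites past 2-fold was 21.7% at a score of 60 and 7.14% with the pseudocount for HDL + CpG against unstimulated cells, and 10.3% and 7.35% for HDL + CpG against HDL.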

Other observations

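Genes of aminoacyl-tRNA synthetases, the enzymes that charge transfer RNAs with amino acids, were noticed among the promoter sites, and the list was made after the data were seen. Of 20 cytosolic members, 7 had a corrected region within 100 kb and 4 of these a shared site, among them Cars, Iars and Yars, each within 0.2 kb of the start. At Yars WT and KO tags were 12.7 and 3.31 unstimulated and 20.6 and 4.39 with HDL (WT/KO 3.82, 2.31 to 6.48, and 4.68, 3.02 to 7.44). At Iars they were 10.2 and 3.97 unstimulated and 9.5 and 2.95 with HDL + CpG (WT/KO 2.58 and 3.22), while a standard peak with HDL, which was not corrected, had 10.8 and 7.72 (WT/KO 1.4, 0.905 to 2.15). At Cars they were 9.23 and 2.42 with HDL and 8.29 and 2.32 with HDL + CpG (WT/KO 3.81 and 3.57). Of the 4 sites, 3 held the composite sequence, in capitals in the mm9 reference sequences of a pair of them, and none held AP-1. Over all 43 shared promoter sites 8 held the composite and 12 AP-1.
Iars promoter, chr13:49777495-49777524, minus strand: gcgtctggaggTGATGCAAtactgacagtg
Yars promoter, chr4:128867139-128867168, plus strand: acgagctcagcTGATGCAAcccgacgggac

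The highest WT/KO of a peak without correction at a shared site was that of Bmf, a pro-apoptotic gene, with HDL + CpG. WT and KO tags stood at 11.5 and 2.11 there, the ratio was 5.46 (2.77 to 12.02), and no corrected peak was called.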
